A study of Mus musculus with 26 samples.

Results

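Macrophages of the pancreatic islets of NOD mice were compared at 4 and at 2 weeks of age, over all genes. The comparison used every NOD macrophage library labelled with these ages, 4 per age, and so 8 of the 26 libraries of the series. NOD/ShiLtJ (NOD) is an inbred strain that develops autoimmune diabetes spontaneously, and both groups were females of this strain, at 2 and at 4 weeks of age. The other libraries were islet macrophages of NOD mice at 8 weeks (n = 4) and 12 weeks (n = 3), and of C57BL/6J (B6) mice, which do not develop the disease, at 2 weeks (n = 3), 4 weeks (n = 4) and 12 weeks (n = 4). Each library came from cells sorted out of the pooled islets of 6 to 14 mice as live CD45+ F4/80+ CD11c+ cells that lacked B220 and CD90, and the RNA was amplified before sequencing. The genes of the sorted proteins, Ptprc (CD45), Adgre1 (F4/80) and Itgax (CD11c), were therefore set in part by the gate. The labels do not say how the pools of a group relate to each other, so a p-value measures the spread between these libraries, which may be technical. In whole populations such as these, fewer cells of a type and less RNA per cell cannot be told apart.

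Islet macrophages sit along the vessels of the islet, close to the beta cells. They take up beta cell granule contents and display peptides from them on MHC class II molecules, which CD4 T cells read. CIITA is the master activator of the class II genes, NLRC5 plays the same role for class I, and interferon-gamma raises both. In NOD mice the islets become infiltrated by lymphocytes after weaning, and these macrophages are among the first cells that present islet antigen there.

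Total counts ran from 10247489 to 13859955 per library at 2 weeks and from 11364167 to 12725828 at 4 weeks, and 18974 to 22079 genes had a count. All levels below are read counts scaled to a common library size (CPM, with TMM-scaled totals), and they do not correct for gene length. Macrophage genes were high in all 8 libraries: Csf1r, the receptor for the main macrophage growth factor, averaged 2312 CPM at 2 weeks and 2293 CPM at 4 weeks, and Cx3cr1, the fractalkine receptor, averaged 1225 and 1177 CPM. Ptprc (log2 fold change 0.10, adjusted p = 0.715) and Adgre1 (-0.01, adjusted p = 0.989) did not pass the test between the ages. The share of counts on Gm42418, a gene model that overlaps ribosomal RNA, was 12.4% to 14.5% at 2 weeks and 15.1% to 20.2% at 4 weeks, with no overlap. Plekhh2 took over 4% of the counts in 2 week replicate 3 and 4 week replicates 1 and 3, and 0.00379% to 0.127% in the others. With ribosomal RNA models and Plekhh2 left out, 345 genes were called in place of 349.

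Between 2 and 4 weeks, 242 genes rose and 107 fell in NOD islet macrophages, among 16468 tested (edgeR's quasi-likelihood test, Benjamini-Hochberg adjusted p under 0.05). That is 2.12% of all genes tested, with 1.47% rising and 0.65% falling. The median log2 fold change of all genes tested was -0.01. At least 2-fold changes were seen for 128 of the rises and 39 of the falls. Of the 349 called genes, 314 had all 4 libraries of one age above all 4 of the other, against 6.57% of all genes tested (3.78% with the 4 week libraries above and 2.79% with them below). The calls were made from these same libraries, so a high share follows from the selection and is no separate support. Leaving out 4 week replicate 1 gave 232 called genes, and a fit of the 8 libraries alone gave 128. A fit of all 26 libraries, in which the more variable B6 libraries share the estimate of the spread, gave 27. A fit with the mean log2 levels of the endocrine and of the acinar marker lists as 2 covariates gave 85, of which 76 were also called without it. The acinar list was low, at a sum of 4.77 to 23.1 CPM at 2 weeks and 3.37 to 19.3 CPM at 4 weeks. Below, a gene list is described by how many members passed. Each such count stands beside the shares over all genes tested, 1.47% rising and 0.65% falling. Members beyond the first 4 by adjusted p are named so that each count is complete, after their values were seen.

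**Figure D1:**
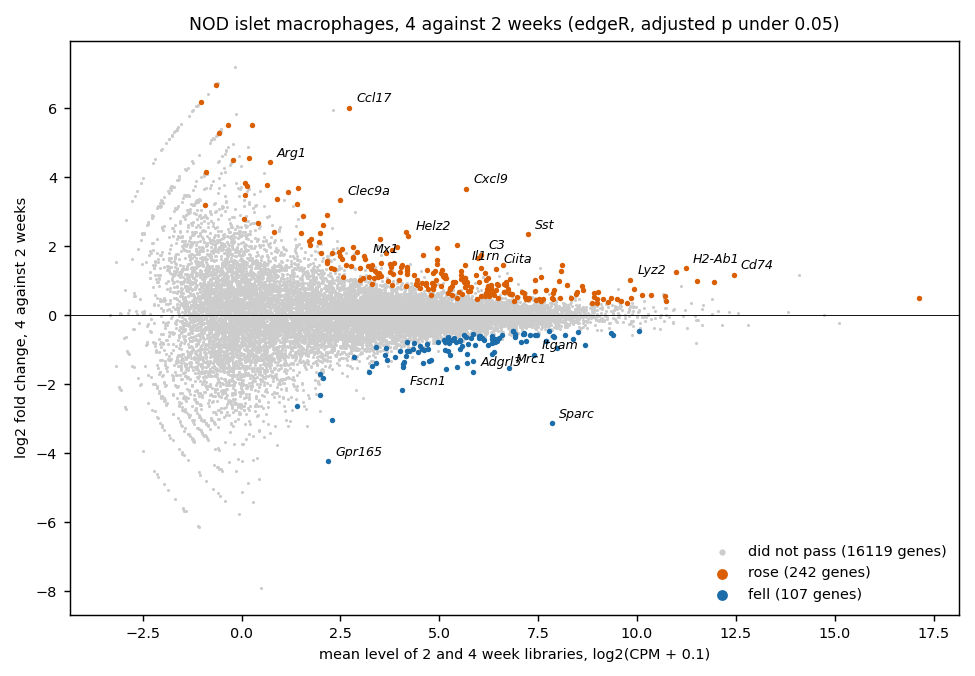
Each point is 1 gene. The x axis gives its mean level over the 2 and 4 week libraries as log2(CPM + 0.1) and the y axis its log2 fold change at 4 against 2 weeks. The 242 genes that rose are orange, the 107 that fell blue and the others grey. Ccl17 lay highest among the named genes and Gpr165 and Sparc lowest, and H2-Ab1 and Cd74 rose at a high level.

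Of 12 class II presentation genes 6 rose, and the remaining 6 also had log2 fold changes above 0. The median over the list was 0.41 on the log2 scale. The summed level of the list was 8259 to 10602 CPM at 2 weeks and 17750.4 to 21715 CPM at 4 weeks, and the ages did not overlap. Ciita, which encodes the class II activator, was at 49.2, 37.7, 68.8 and 40.5 CPM at 2 weeks and 97.5, 107, 139 and 153 CPM at 4 weeks. Every 4 week library lay above every 2 week library (log2 fold change 1.34, SE 0.17, adjusted p = 5.79e-05). H2-Ab1, the beta chain of the class II molecule I-A, was at 1301, 1087, 1536 and 1471 CPM at 2 weeks and 3306, 3944, 3596 and 2945 CPM at 4 weeks. The lowest 4 week library lay well above the highest 2 week library (log2 fold change 1.35, SE 0.11, adjusted p = 1.04e-07). Cd74, the invariant chain that guards the peptide groove, was at 3405, 2739, 3698 and 3878 CPM at 2 weeks and 7561, 7533, 7864 and 7973 CPM at 4 weeks. The 4 week libraries lay close together and the ages did not overlap (log2 fold change 1.17, SE 0.11, adjusted p = 7.33e-07). H2-Eb1, the gene for the beta chain of I-E, also rose without overlap (log2 fold change 1.26, SE 0.13, adjusted p = 5.97e-06). This is RNA, and whether I-E protein is made in these mice was not examined. H2-Aa, the alpha chain of I-A (log2 fold change 0.98, SE 0.13, adjusted p = 9.79e-05), and H2-DMb1, a chain of the peptide exchange factor (log2 fold change 0.50, SE 0.11, adjusted p = 0.0209), rose without overlap as well. Older NOD libraries had higher means still: H2-Ab1 averaged 8247 ± 449 CPM at 8 weeks and 9467 ± 339 CPM at 12 weeks, and Ciita averaged 208 ± 20.1 CPM at 8 weeks and 235 ± 17.5 CPM at 12 weeks. Among members that did not pass, H2-DMa had a log2 fold change of 0.20 (adjusted p = 0.407) and the protease gene Ctss 0.08 (adjusted p = 0.858). With a library left out, 5 or 6 members passed. With the endocrine and acinar covariates 5 passed, and 5 did in the fit of all 26 libraries.

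Class II promoters hold an inverted CCAAT element called the Y box, which is bound by NF-Y and stands beside the sites through which CIITA is recruited. It was searched for as TGATTGG on both strands, in the 300 bases from 250 before to 50 after each RefSeq gene start (GRCm38.p6). It was present in 6 of the 9 class II list members that had a window, against 8.995% of all 27025 genes with a window. Of the members with the match, H2-DMb2, H2-Oa and H2-Ob did not pass the test between the ages (log2 fold changes 0.21, 0.32 and 0.16). The 3 members that rose and had a window, H2-Aa, H2-Eb1 and H2-DMb1, all had the match. Their 150 bases upstream of the start are given below, 5′ to 3′ on the gene's strand with the match in capitals, because these promoters belong to genes that rose together. The letters are those of the reference, which is built from B6 mice, and the promoters of NOD mice were not examined. A match describes these letters and is not evidence of binding.
H2-Aa, chr17:34287824-34287973, minus strand: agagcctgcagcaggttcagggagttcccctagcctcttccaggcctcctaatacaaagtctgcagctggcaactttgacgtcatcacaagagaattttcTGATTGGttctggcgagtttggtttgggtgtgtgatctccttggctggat
H2-Eb1, chr17:34305717-34305866, plus strand: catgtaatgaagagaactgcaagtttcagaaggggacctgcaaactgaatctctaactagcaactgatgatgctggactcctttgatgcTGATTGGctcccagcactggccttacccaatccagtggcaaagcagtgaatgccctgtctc
H2-DMb1, chr17:34153041-34153190, plus strand: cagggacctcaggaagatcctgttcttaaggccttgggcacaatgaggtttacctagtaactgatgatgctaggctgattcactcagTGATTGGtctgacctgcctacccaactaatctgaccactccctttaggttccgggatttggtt

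Of 16 class I presentation genes 6 rose, and all 16 had log2 fold changes above 0 (median 0.43). Nlrc5, the class I activator, was at 22.2, 27.8, 46.5 and 35.8 CPM at 2 weeks and 50.7, 60.1, 68.3 and 79.6 CPM at 4 weeks. The ages did not overlap (log2 fold change 0.97, SE 0.19, adjusted p = 0.00626). H2-K1, a classical class I heavy chain, was at 263, 248, 302 and 305 CPM at 2 weeks and 411, 496, 422 and 367 CPM at 4 weeks. Its 4 week libraries all lay above the 2 week libraries (log2 fold change 0.60, SE 0.11, adjusted p = 0.00475). H2-D1, another heavy chain, had a log2 fold change of 0.53, adjusted p = 0.00497. H2-K1 and H2-D1 have close copies, and their counts are uncertain for that reason. Psmb8, a subunit of the immunoproteasome, rose from 83.9 to 132 CPM on average (log2 fold change 0.65, SE 0.15, adjusted p = 0.0176). Tapbp, which loads peptide onto class I (0.50, adjusted p = 0.024), and Calr, a chaperone of the same complex (0.36, adjusted p = 0.022), made up the count. B2m, the light chain, did not pass (0.29, adjusted p = 0.344). Of this list 3 to 6 members passed with a library left out, 2 in the fit of the 8 libraries alone, and none with the endocrine and acinar covariates (edgeR). Psmb8 lost its call without 4 week replicate 1 (0.60) or replicate 2 (0.52).

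Most interferon-stimulated genes had higher values at 4 weeks that did not pass the test. Of 30 type I interferon-stimulated genes, 5 rose and all 30 had log2 fold changes above 0, with a median of 0.69. The summed level was 605 to 813 CPM at 2 weeks and 975 to 1185 CPM at 4 weeks, without overlap. Oas2, an enzyme that activates the antiviral nuclease RNase L, was at 42.9, 20.2, 24.4 and 21.8 CPM at 2 weeks and 70.3, 63.4, 64.03 and 69.2 CPM at 4 weeks. The 4 week libraries lay close together, above 2 week replicate 1, which was the highest of its age (log2 fold change 1.29, SE 0.23, adjusted p = 0.0035). Mx1, an antiviral GTPase, was at 2.94, 3.46, 5.55 and 4.89 CPM at 2 weeks and 16.7, 9.35, 10.5 and 15.9 CPM at 4 weeks. Its ages did not overlap (log2 fold change 1.64, SE 0.30, adjusted p = 0.00345). Oasl2, an antiviral protein related to the Oas enzymes, rose from 48.2 to 97.7 CPM on average (log2 fold change 1.02, SE 0.20, adjusted p = 0.00497). Rsad2 (viperin), an antiviral radical enzyme, was at 6.92, 4.77, 16.3 and 12.1 CPM at 2 weeks and 41.9, 29.8, 16.5 and 16.7 CPM at 4 weeks. The 2 highest 4 week libraries stood apart, and the lowest 4 week library was just above the highest 2 week library (log2 fold change 1.40, SE 0.35, adjusted p = 0.0347). Ifih1, the RNA sensor MDA5, completed the count (log2 fold change 0.65, SE 0.17, adjusted p = 0.0431). Of the members that did not pass, Isg15 averaged 2.45 and 5.55 CPM (1.17, adjusted p = 0.292) and Irf7 23.8 and 42.1 CPM (0.82, adjusted p = 0.241). Rsad2 lost its call without 2 week replicate 1 (1.25) or 2 (1.16) or 4 week replicate 1 (1.06) or 2 (1.33). With a library left out, 3 to 6 members passed, in the fit of the 8 libraries alone 2, in that of all 26 libraries 1, and with the endocrine and acinar covariates none (edgeR). In NOD Oas2 averaged 27.3 CPM at 2 weeks, 27.4 ± 9.52 CPM at 8 weeks and 26.8 ± 3.44 CPM at 12 weeks. The summed level of the list, in contrast, stayed above all 2 week libraries, at 1005 to 1350 CPM at 8 weeks and 1226 to 1462 CPM at 12 weeks.

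The interferon-stimulated response element was searched for as GAAANNGAAA on both strands of the same promoter windows. It was present in 11 of the 21 type I list members that had a window, against 3.99% of all 27025 genes with a window. Among the members that rose, 3 had a window and 2 had a match, Rsad2 and Ifih1. The other members with a match, Ifit1, Ifit3, Isg15, Oas1a, Oas3, Stat2, Ddx58, Bst2 and Trim30a, did not pass the test between the ages. Rsad2 and Ifih1 are shown because both genes rose, and their letters too are those of the B6 reference and not of NOD mice. The Rsad2 run is the 150 bases upstream of the start, and in it the match reads on the opposite strand; the Ifih1 run is 30 bases downstream of the start.
Rsad2, chr12:26456453-26456602, minus strand: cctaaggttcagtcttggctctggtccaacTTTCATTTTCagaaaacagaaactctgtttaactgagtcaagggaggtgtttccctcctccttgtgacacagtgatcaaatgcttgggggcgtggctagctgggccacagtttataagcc
Ifih1, chr2:62646206-62646235, minus strand: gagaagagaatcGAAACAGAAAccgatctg

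The interferon-gamma response list had 4 of 24 tested members rising, and its median was 0.46. Ciita was one of them. Cxcl9, the chemokine that draws CXCR3-bearing T cells, was at 4.11, 4.25, 6.26 and 15.99 CPM at 2 weeks and 57.9, 175, 125 and 21.5 CPM at 4 weeks. The lowest 4 week library was close to the highest 2 week library, and the others lay far above (log2 fold change 3.67, SE 0.64, adjusted p = 0.0127). Cxcl9 averaged 1608 ± 227 CPM at 8 weeks and 2802 ± 551 CPM at 12 weeks in NOD. Fcgr4, an activating Fc receptor, was at 98.1, 83.8, 77.95 and 93.4 CPM at 2 weeks and 152, 165, 132 and 89.2 CPM at 4 weeks, and the ages overlapped through 4 week replicate 4 (log2 fold change 0.61, SE 0.16, adjusted p = 0.0432). Fcgr4 lost its call without any of 6 libraries, which left log2 fold changes of 0.49 to 0.63; the exceptions were 2 week replicate 1 and 4 week replicate 4. Serpina3g, a protease inhibitor of a family of close copies whose counts are uncertain, rose from 0.513 to 4.58 CPM with overlap (3.23, adjusted p = 0.00345). Of the 24 members, 17 had log2 fold changes above 0. Cxcl10, another CXCR3 ligand, averaged 71.3 CPM at 2 weeks and 53.5 CPM at 4 weeks (-0.41, adjusted p = 0.71), and Irf1 51.7 and 44.8 CPM (-0.21, adjusted p = 0.561). Cd274, the checkpoint ligand PD-L1, was at 3.85, 17.4, 8.96 and 24.3 CPM at 2 weeks and 24.6, 47.2, 33.1 and 26.1 CPM at 4 weeks, which did not overlap and did not pass (1.28, adjusted p = 0.169). With a library left out 3 to 6 members of the list rose, with limma-voom 2, and 1 each in the fit of the 8 libraries alone, in that of all 26 libraries and with the endocrine and acinar covariates. Cxcl9 lost its call in the 8 libraries alone (adjusted p = 0.103), in all 26 (0.137), with limma-voom (0.178) and with the covariates (0.217), at log2 fold changes of 3.37 to 3.66.

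**Figure D2:**
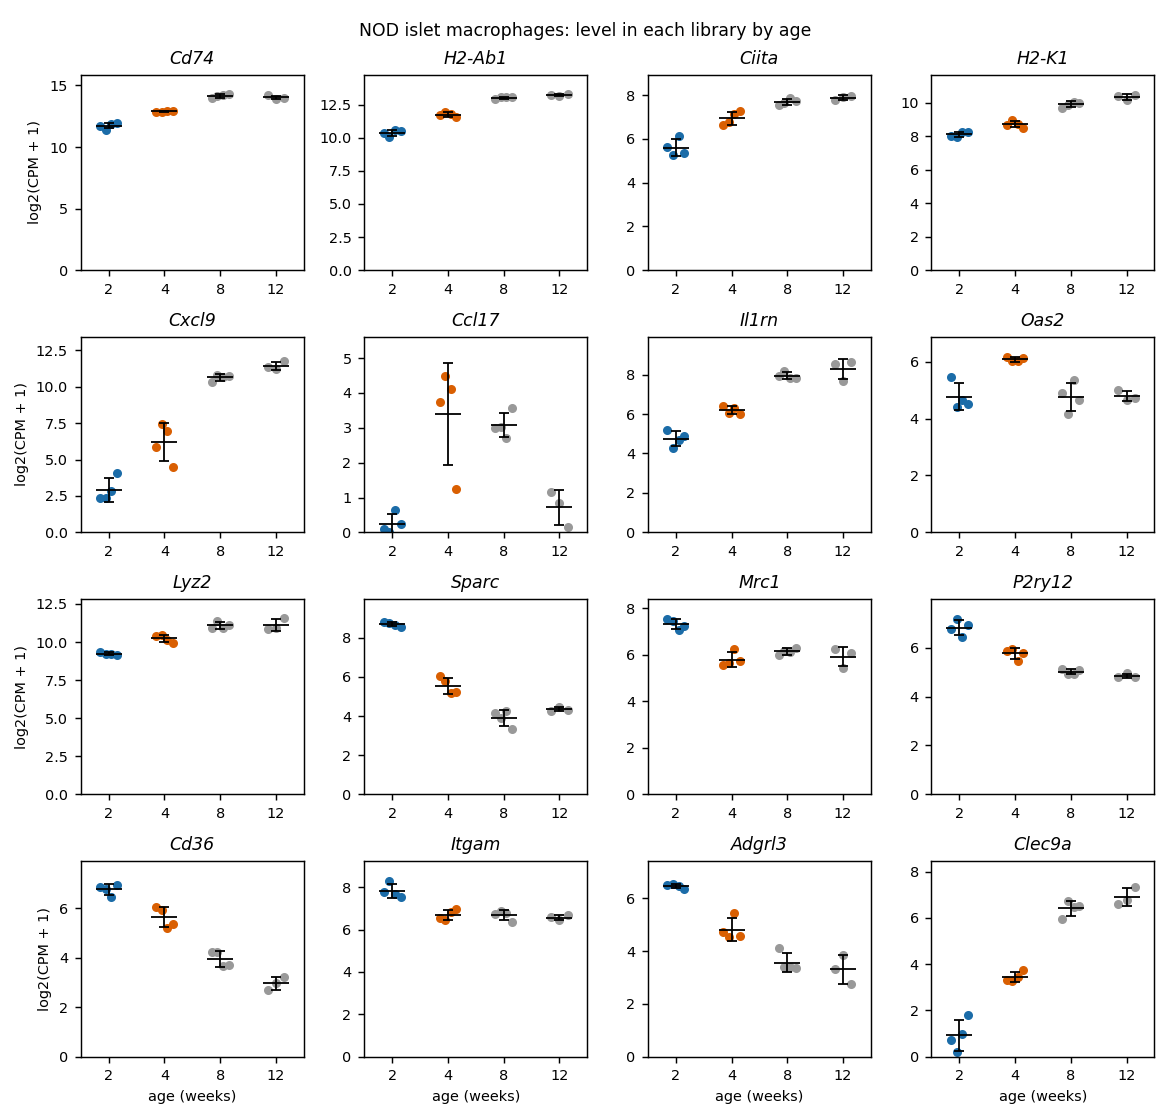
Each panel is 1 gene and each point 1 NOD library, as log2(CPM + 1) by age in weeks; the bar and whiskers are the mean and SD of the logged values. Blue is 2 weeks and orange 4 weeks, the ages compared, and grey marks 8 and 12 weeks. Cd74, H2-Ab1, Ciita and Lyz2 were higher at 4 weeks and Sparc, Mrc1, P2ry12 and Cd36 lower, without overlap of the 2 ages.

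Cytokine and chemokine genes had 4 of 26 tested members rising, with a list median of 0.33. Ccl17, a ligand of the chemokine receptor CCR4 that dendritic cells and activated macrophages make, was at 0.0652, 0, 0.555 and 0.175 CPM at 2 weeks and 12.5, 21.2, 16.4 and 1.38 CPM at 4 weeks. The 2 week libraries held 10 reads of this gene in all, and 4 week replicate 4 was far below the other 4 week libraries (log2 fold change 6.02, SE 0.83, adjusted p = 1.69e-04). Ccl17 averaged 7.62 ± 2.23 CPM at 8 weeks and 0.712 ± 0.561 CPM at 12 weeks. Il1rn, the natural antagonist of the interleukin-1 receptor, was at 35.5, 18.5, 24.98 and 28.1 CPM at 2 weeks and 85.1, 64.5, 78.3 and 63.01 CPM at 4 weeks. Its ages were well separated (log2 fold change 1.44, SE 0.19, adjusted p = 1.14e-04). Il1b, the cytokine it opposes, was at 266, 289, 292 and 264 CPM at 2 weeks and 567, 693, 408 and 345 CPM at 4 weeks. The 2 week libraries lay close together below all 4 week libraries (log2 fold change 0.86, SE 0.17, adjusted p = 0.00699). Ccl4, an inflammatory chemokine, rose from 119 to 258 CPM on average, and its lowest 4 week library was barely above its highest 2 week library (log2 fold change 1.12, SE 0.22, adjusted p = 0.00699). Tnf averaged 205 and 246 CPM and did not pass (0.26, adjusted p = 0.801), and Il10 averaged 3.91 and 0.944 CPM (-2.07, adjusted p = 0.107). Leaving out a library gave 4 or 5 rising members of the list, limma-voom with sample weights gave 1, the covariates 2 and all 26 libraries 1.

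Itgax (CD11c), a marker of the gate, was at 379.6, 331, 397 and 483 CPM at 2 weeks and 645, 610.3, 619 and 673 CPM at 4 weeks, and the ages did not overlap (log2 fold change 0.68, SE 0.10, adjusted p = 6.04e-04). Itgam (CD11b), the alpha chain of complement receptor 3, was at 217, 318, 208 and 184 CPM at 2 weeks and 93.2, 88.3, 113 and 124 CPM at 4 weeks. Itgam was lower in all 4 week libraries (log2 fold change -1.15, SE 0.16, adjusted p = 1.83e-04). Lyz2 (lysozyme), whose counts are uncertain because of its close copy Lyz1, was at 658, 586, 587 and 569.9 CPM at 2 weeks and 1348, 1422, 1141 and 961 CPM at 4 weeks. It was higher in all 4 week libraries (log2 fold change 1.02, SE 0.15, adjusted p = 2.56e-04). Mrc1 (CD206), the mannose receptor, was at 184, 174, 134 and 149.6 CPM at 2 weeks and 45.8, 49.1, 75.3 and 51.4 CPM at 4 weeks, and the highest 4 week library was well below the lowest 2 week library (log2 fold change -1.53, SE 0.17, adjusted p = 1.73e-05). P2ry12, a purine receptor best known from microglia, was at 107, 141, 84.3 and 119.8 CPM at 2 weeks and 57.5, 60.01, 42.9 and 53.6 CPM at 4 weeks. The 2 ages were separate (log2 fold change -1.08, SE 0.15, adjusted p = 2.66e-04). Mertk, a receptor for the uptake of dying cells, had a log2 fold change of -0.78, adjusted p = 0.0492, with overlapping ages. Mertk lost its call without 2 week replicate 1, 2 or 4 or 4 week replicate 1 or 2, with values of -0.63 to -0.80.

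Core macrophage genes had 2 members that rose (Itgax, Lyz2) and 2 that fell (Itgam, Mertk) of 20, with a median of 0.06. Of the alternatively activated or perivascular list, Arg1 rose and Mrc1 fell among 15 tested members. Arg1 (arginase) was at 0.261, 0.0653, 0.0793 and 0.0874 CPM at 2 weeks and 4.55, 2.003, 3.21 and 2.02 CPM at 4 weeks. All of its 2 week values rested on 7 reads in total, so the size of the rise is loosely set (log2 fold change 4.43, SE 0.77, adjusted p = 0.00209). The level of 3 counts, taken as the floor of detection, was 0.216 to 0.293 CPM in these libraries. Lyve1, a hyaluronan receptor of perivascular macrophages, lay below it at averages of 0.163 and 0.0223 CPM, and was not tested. Among genes that set resident against monocyte-derived macrophages, P2ry12 was the member that fell of 16 tested, and the median was -0.17. Sall1, a transcription factor of microglia, was at 13.6, 3.33, 13.3 and 25.7 CPM at 2 weeks and 4.37, 0.0742, 1.41 and 4.77 CPM at 4 weeks and did not pass (-2.40, adjusted p = 0.0923).

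Sparc, a secreted glycoprotein that binds collagen and shapes the matrix, had the smallest adjusted p among the genes that fell. It was at 445, 433, 398 and 373 CPM at 2 weeks and 64.02, 53.6, 34.95 and 36.3 CPM at 4 weeks. The lowest 2 week library was several times the highest 4 week library (log2 fold change -3.13, SE 0.19, adjusted p = 1.33e-09). Sparc lies on the minus strand at chr11:55394500-55423183 (GRCm38). It averaged 14.5 ± 3.92 CPM at 8 weeks and 19.3 ± 1.49 CPM at 12 weeks in older NOD libraries. Its call held in all 20 alternatives tried, among them each omitted library, the 8 libraries alone, all 26 libraries, the covariates and the limit of 2-fold change. Thbs1 (thrombospondin-1), another secreted matrix protein, was at 48.1, 55.3, 36.7 and 73.1 CPM at 2 weeks and 18.5, 18.5, 15.4 and 19.2 CPM at 4 weeks. The ages did not overlap (log2 fold change -1.57, SE 0.27, adjusted p = 0.00156).

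Other growth factor and matrix genes rose: 4 of 24 tested members of that list did, against the falls of Sparc and Thbs1, and the median was 0.25. Pdgfb, a growth factor for pericytes and fibroblasts, was at 47.04, 56.97, 75.4 and 44.8 CPM at 2 weeks and 108, 103, 87.1 and 111 CPM at 4 weeks. No 4 week library overlapped a 2 week library (log2 fold change 0.86, SE 0.15, adjusted p = 0.00156). Tgfbi, a matrix protein induced by TGF-beta, rose from 891 to 1341 CPM (log2 fold change 0.59, SE 0.10, adjusted p = 0.00249). Mmp12, the macrophage elastase (0.75, adjusted p = 0.0426), and Mmp14, a membrane-bound matrix protease (0.48, adjusted p = 0.0189), were the others. Igf1, a growth factor that many tissue macrophages make, did not pass (-0.31, adjusted p = 0.647). Leaving out a library left 2 to 4 rises and 2 falls, the covariates 2 rises and 1 fall, and all 26 libraries 1 of each.

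Complement genes had 5 members that rose and Itgam that fell of 17 tested (median 0.18). C3, the central complement protein, was at 37.5, 34.1, 19.8 and 30.8 CPM at 2 weeks and 62.5, 156, 130.3 and 63.5 CPM at 4 weeks. The 4 week libraries formed a high and a low pair, both above the 2 week libraries (log2 fold change 1.75, SE 0.29, adjusted p = 0.00497). C3 averaged 1227 ± 241 CPM at 8 weeks and 1468 ± 166 CPM at 12 weeks. Of the C1q chains, which bind immune complexes and dying cells, C1qc rose from 1457 to 1921 CPM (log2 fold change 0.40, SE 0.09, adjusted p = 0.0134) and C1qa from 1048 to 1569.9 CPM (0.58, adjusted p = 0.0191). C1qb did not pass (0.18, adjusted p = 0.421). Cfp (properdin) also rose (0.62, adjusted p = 0.0478), and the fifth was Itgax. C1qc lost its call without 2 week replicate 2 (0.36) or 4 week replicate 1 (0.35), and 2 to 5 members rose with a library left out, 2 with the covariates and 2 in all 26 libraries.

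Genes of lipid uptake and handling split. Cd36, a scavenger receptor that takes up fatty acids and oxidised lipoprotein, was at 116, 110.3, 87.2 and 124 CPM at 2 weeks and 65.7, 59.5, 36.05 and 40.8 CPM at 4 weeks. The 4 week libraries all lay below the 2 week libraries (log2 fold change -1.12, SE 0.20, adjusted p = 0.00285). Cd36 averaged 14.9 ± 3.48 CPM at 8 weeks and 6.92 ± 1.47 CPM at 12 weeks. Lgals3 (galectin-3) was at 69.7, 64.6, 65.5 and 79.6 CPM at 2 weeks and 144, 142, 129.9 and 128 CPM at 4 weeks, with tight groups that did not overlap (log2 fold change 0.96, SE 0.13, adjusted p = 1.24e-04). Clec7a (dectin-1), a receptor for fungal glucans, rose from 61.03 to 113 CPM (log2 fold change 0.89, SE 0.19, adjusted p = 0.0125), a call lost without 4 week replicate 1 (0.76). Gpnmb, a glycoprotein of lipid-laden macrophages, rose from 16.4 to 45.5 CPM (1.47, adjusted p = 0.0347). Without any library other than 2 week replicate 1 it lost its call, with values from 1.27 upward. Lgals3, Clec7a and Gpnmb were the 3 rises, and Cd36 and Mertk the 2 falls, among 22 tested members of the lipid-associated and phagocytic list (median 0.14). With the covariates, and in all 26 libraries, 1 rise and no fall of this list passed in edgeR.

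Scd2, a fatty acid desaturase, was at 122, 112, 73.5 and 82.5 CPM at 2 weeks and 51.5, 68.4, 52.9 and 42.2 CPM at 4 weeks. It was lower in all 4 week libraries (log2 fold change -0.86, SE 0.18, adjusted p = 0.0125). Abca1, the cholesterol exporter and a standard LXR target, fell from 762 to 528 CPM (-0.53, adjusted p = 0.0253), Cpt1a, which admits fatty acids to mitochondria, fell from 262 to 156 CPM (-0.75, adjusted p = 0.0463), and Nr1h3, which encodes LXR-alpha itself, rose from 2.77 to 8.63 CPM (1.62, adjusted p = 0.0206). These were the 4 called of 26 LXR and PPAR genes (median 0.04). Abca1 lost its call without 2 week replicate 2 or 4 week replicate 1, 2 or 3 (-0.43 to -0.54), Cpt1a without 2 week replicate 1, 2 or 4 or 4 week replicate 1 or 2 (-0.59 to -0.77), and Nr1h3 without 2 week replicate 2, 3 or 4 or 4 week replicate 2 or 3 (1.34 to 1.67). In cholesterol synthesis, 2 of 24 genes rose (median 0.27). Among them Srebf2, the transcription factor of the pathway, rose from 53.3 to 96.4 CPM (log2 fold change 0.85, SE 0.17, adjusted p = 0.0075). Lysosome genes had 3 rises and 1 fall of 26 (median 0.14): Hexa (0.41, adjusted p = 0.0209), Neu1 (0.57, adjusted p = 0.0463) and Lamp1 (0.36, adjusted p = 0.0464) rose, and Galc fell from 110.4 to 66.3 CPM (log2 fold change -0.74, SE 0.16, adjusted p = 0.013). With a library left out 0 to 2 of the lysosome rises passed (edgeR), while Galc kept its call. Neu1 lost its call in each of the 8 omissions (0.49 to 0.62).

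**Figure D3:**
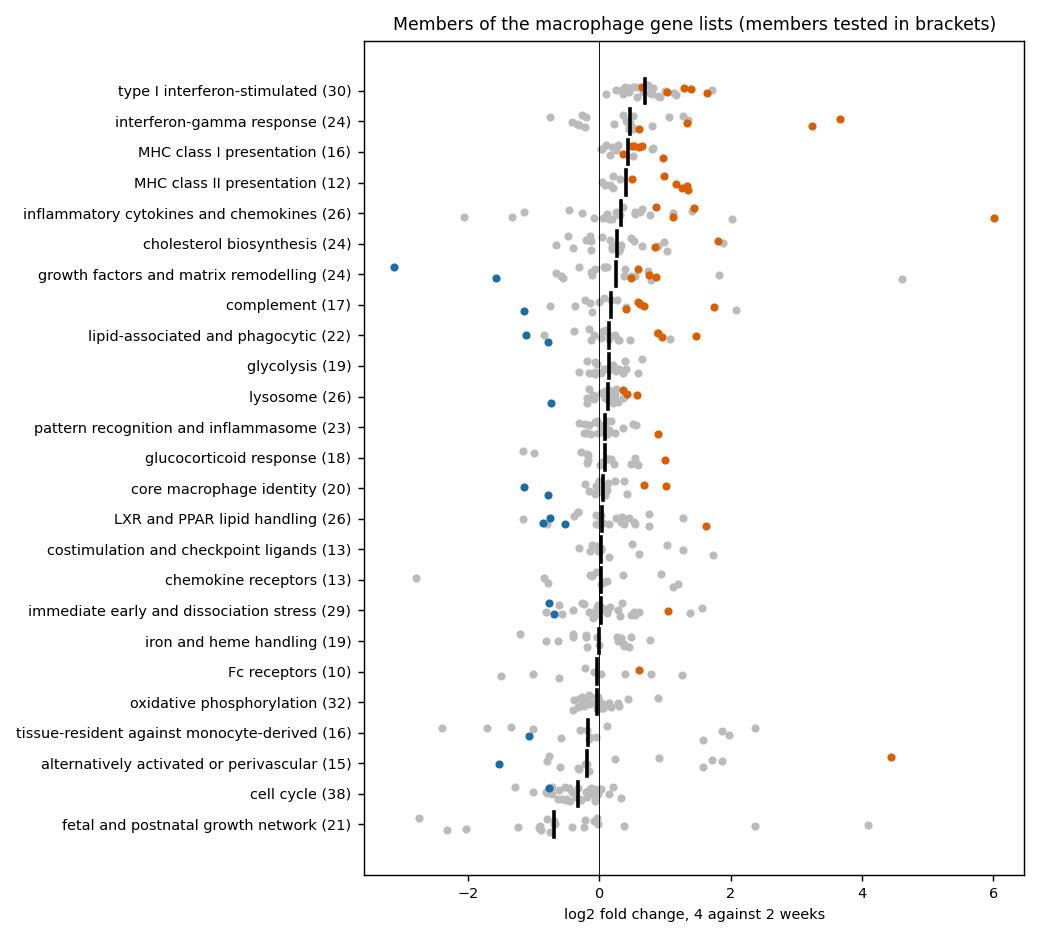
Each row is a list of macrophage genes, with the number of members tested in brackets and each point a member, by its log2 fold change at 4 against 2 weeks. Orange members rose, blue fell, grey did not pass, and the black bar is the list's median. The type I interferon-stimulated list had the highest median (0.69) and the fetal and postnatal growth network the lowest (-0.69).

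The largest rises not yet described were of genes with varied roles. Slamf7, a self-ligand receptor of the SLAM family, was at 0.457, 1.05, 1.03 and 2.53 CPM at 2 weeks and 7.58, 8.83, 6.58 and 2.67 CPM at 4 weeks. The lowest 4 week library, replicate 4, was just above 2 week replicate 4 (log2 fold change 2.38, SE 0.37, adjusted p = 6.69e-04). Helz2, an interferon-induced helicase, was at 4.63, 11.04, 2.93 and 6.205 CPM at 2 weeks and 30.2, 27.3, 28.1 and 36.97 CPM at 4 weeks. The ages were well apart (log2 fold change 2.30, SE 0.32, adjusted p = 2.24e-04). Pdcd1 (PD-1), an inhibitory receptor, rose from 1.16 to 5.17 CPM (2.14, adjusted p = 0.0366), Wfdc17, a secreted protein of the whey acidic family, from 4.1 to 18.4 CPM (2.21, adjusted p = 0.013), and Ppp1r14a, an inhibitor of myosin phosphatase, from 1.16 to 5.36 CPM (2.20, adjusted p = 0.0166). Oas1c, of a family of close copies and so uncertain, rose from 1.15 to 6.98 CPM (2.61, adjusted p = 0.0328). Oas1c lost its call without 2 week replicate 2 (2.66) or 3 (2.63) or 4 week replicate 3 (2.00). Pdcd1 lost its call without 2 week replicate 1, 3 or 4 or 4 week replicate 1 or 2 (1.76 to 2.15).

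The largest falls were of genes with varied roles. Gpr165, an orphan G protein-coupled receptor, was at 15.5, 1.44, 5.31 and 11.8 CPM at 2 weeks and 0.535, 0.445, 0.549 and 0.243 CPM at 4 weeks. The 2 week libraries varied widely, and all lay above the 4 week libraries (log2 fold change -4.23, SE 0.77, adjusted p = 0.00364). Adgrl3 (latrophilin-3), an adhesion receptor, was at 89.3, 93.3, 87.9 and 80.8 CPM at 2 weeks and 25.7, 21.96, 42.3 and 22.5 CPM at 4 weeks. The ages were far apart (log2 fold change -1.64, SE 0.24, adjusted p = 3.57e-04), and Adgrl3 averaged 11.1 ± 3.45 CPM at 8 weeks and 9.37 ± 3.84 CPM at 12 weeks. Arsb, a lysosomal sulfatase, was at 60.2, 70.2, 62.96 and 64.8 CPM at 2 weeks and 24.8, 22.5, 16.1 and 28.6 CPM at 4 weeks, again without overlap (log2 fold change -1.49, SE 0.19, adjusted p = 9.42e-05). Cdc42bpa, a kinase of the actin cytoskeleton, fell from 25.1 to 8.85 CPM (log2 fold change -1.51, SE 0.29, adjusted p = 0.00497). Tfec, a transcription factor of the MITF family, fell from 14.02 to 4.49 CPM (-1.65, adjusted p = 0.0426), Cacnb2, a calcium channel subunit, from 6.31 to 1.79 CPM (-1.81, adjusted p = 0.0298), and Cry1, a repressor of the circadian clock, from 6.43 to 1.3 CPM (-2.30, adjusted p = 0.0347). Each of these last 3 lost its call in 5 of the 8 omissions of a library: Tfec without 2 week replicate 1 or 2 or 4 week replicate 1, 3 or 4 (-1.28 to -1.86), Cacnb2 without 2 week replicate 1 or 4 or 4 week replicate 1, 3 or 4 (-1.64 to -1.97), and Cry1 without 2 week replicate 2 or 3 or 4 week replicate 2, 3 or 4 (-2.09 to -2.34).

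Dendritic cells also carry CD11c, and their marker list had 2 rises and 2 falls among 18 genes, with a median of 0.79. Clec9a, a receptor for dead cells that marks the cross-presenting dendritic cell, was at 0.652, 0.131, 0.952 and 2.45 CPM at 2 weeks and 9.01, 8.75, 9.95 and 12.3 CPM at 4 weeks. All 4 week libraries lay together above the 2 week libraries (log2 fold change 3.34, SE 0.39, adjusted p = 4.90e-05). Clec9a averaged 86.7 ± 18.3 CPM at 8 weeks and 122 ± 35.1 CPM at 12 weeks. Dpp4 (CD26), a surface peptidase, was at 0.652, 0.0653, 2.46 and 1.05 CPM at 2 weeks and 8.11, 6.602, 4.47 and 11.8 CPM at 4 weeks. The groups stood apart without overlap (log2 fold change 2.90, SE 0.49, adjusted p = 0.00156). Fscn1 (fascin), the actin bundler of mature dendritic cells, was at 21.1, 25.3, 29.7 and 32.7 CPM at 2 weeks and 6.24, 6.38, 3.45 and 8.01 CPM at 4 weeks. It was lower in all 4 week libraries (log2 fold change -2.17, SE 0.24, adjusted p = 1.22e-05). Zbtb46, a transcription factor of classical dendritic cells, fell from 5.93 to 1.795 CPM (-1.72, adjusted p = 0.0485); its call was lost without 2 week replicate 2 or 3 or any 4 week replicate (-1.26 to -1.84). Flt3, the dendritic cell growth factor receptor, averaged 5.86 and 1.57 CPM (-1.90, adjusted p = 0.136), and Xcr1, the other marker of the cross-presenting type, averaged 0.673 and 1.17 CPM (0.80, adjusted p = 0.516). The summed dendritic list was 2049.6 to 2476 CPM at 2 weeks and 1913 to 2360 CPM at 4 weeks. Most of it was Sirpa, which is also a core macrophage list member and averaged 1729 CPM at 2 weeks and 1549 CPM at 4 weeks. The part of dendritic cells in the rises of Ccl17 and Clec9a was not tested.

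Cell cycle genes lay lower at 4 weeks with little passing: 33 of 38 had log2 fold changes below 0, the median was -0.32, and Cenpe, a mitotic kinesin, was the member that fell (log2 fold change -0.76, SE 0.18, adjusted p = 0.0205). Cenpe lost its call without 2 week replicate 4 (-0.66) or 4 week replicate 1 (-0.65) or 2 (-0.72), and 0 to 3 members passed with a library left out (edgeR), 3 with DESeq2 and 2 with limma-voom. Cenpf averaged 36.2 and 20.7 CPM without overlap and did not pass (-0.81, adjusted p = 0.0616). The summed cell cycle level overlapped, at 1419.9 to 1855 CPM and 1076 to 1658 CPM. The fetal and postnatal growth network, a set that holds several imprinted genes, had a median of -0.69 and 18 of 21 members below 0. No member of it passed in the main edgeR fit, and with a library left out at most 1 rose and at most 1 fell. At an unadjusted p under 0.05 there were 3 (1 higher, 2 lower), DESeq2 called 1 and limma-voom none. Its summed level was 184 to 212 CPM at 2 weeks and 153 to 172 CPM at 4 weeks, without overlap. Igf2bp3, an RNA-binding protein of fetal cells, averaged 38.5 ± 4.49 CPM at 2 weeks and 22.9 ± 7.77 CPM at 4 weeks and did not pass (-0.75, adjusted p = 0.108), although the ages did not overlap.

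Genes induced by cell dissociation and stress did not move as a block: of 29, Dnajb1 rose and Nr4a1 and Ier3 fell, and the median was 0.02. Dnajb1, a heat shock co-chaperone, was at 71.6, 56.9, 92.3 and 69.1 CPM at 2 weeks and 161, 156, 128 and 149.7 CPM at 4 weeks. The ages did not overlap (log2 fold change 1.04, SE 0.16, adjusted p = 6.94e-04). Nr4a1, an immediate early nuclear receptor (-0.69, adjusted p = 0.0296), and Ier3, an early response gene (-0.77, adjusted p = 0.0357), overlapped between the ages. Nr4a1 lost its call without any library but 2 week replicate 1 and 4 week replicate 2 (-0.59 to -0.72), and Ier3 without 2 week replicate 2 or 4 or 4 week replicate 1, 3 or 4 (-0.64 to -0.81). With a library left out, 1 to 6 members rose and 0 to 3 fell (edgeR). Sgk1, a kinase induced by glucocorticoid, was at 106, 184, 173 and 239 CPM at 2 weeks and 320.1, 451, 327 and 303 CPM at 4 weeks, and was the member that rose of the 18 glucocorticoid genes (log2 fold change 0.999, SE 0.19, adjusted p = 0.00505).

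Of 23 pattern recognition and inflammasome genes, Clec7a rose, and of 10 Fc receptor genes, Fcgr4 rose. These shares, 4.35% and 10%, each rest on a single gene, and 1.47% of all genes tested rose. In 5 further lists no member passed in the main edgeR fit. With a library left out, at most 1 member of each rose and none fell. In edgeR 1 chemokine receptor rose with the covariates, and 1 iron and heme gene fell in the 8 libraries alone. Of 13 costimulation and checkpoint ligands, 3 were higher at an unadjusted p under 0.05, and neither DESeq2 nor limma-voom called any. Of 13 chemokine receptors, 2 were higher and 1 lower at that level, and DESeq2 called 1, limma-voom none. Ccr6, the receptor of Ccl20, was at 15.8, 6.53, 11.6 and 19.2 CPM at 2 weeks and 24.96, 22.99, 25 and 28.6 CPM at 4 weeks, which narrowly missed the threshold (0.94, adjusted p = 0.055). Of 19 glycolysis genes 3 were higher at an unadjusted p under 0.05, of 32 oxidative phosphorylation genes 1, and DESeq2 and limma-voom called none of either list. Of 19 iron and heme genes, 3 were higher and 3 lower at that level; DESeq2 called 3 (2 higher) and limma-voom 1. Slc40a1 (ferroportin), the iron exporter, was at 28.6, 30.8, 25.8 and 24.8 CPM at 2 weeks and 13.6, 14.5, 11.4 and 8.17 CPM at 4 weeks, apart in every library and short of the threshold (-1.21, adjusted p = 0.0788).

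Transcripts of islet endocrine cells were present in all 8 libraries. Ins2, an insulin gene, was at 1611, 478, 1759 and 2498 CPM at 2 weeks and 5234, 3342, 1212 and 1492 CPM at 4 weeks, with overlap (0.83, adjusted p = 0.488), and Ins1 overlapped likewise (0.76, adjusted p = 0.527). Sst, the delta cell hormone somatostatin, was at 63.5, 40.05, 48.1 and 48.2 CPM at 2 weeks and 388, 192, 223 and 210.5 CPM at 4 weeks. Sst did not overlap between the ages (log2 fold change 2.34, SE 0.21, adjusted p = 8.90e-07). Chgb, a granule protein, rose with overlap (1.48, adjusted p = 0.0243) and lost its call without 2 week replicate 1, 3 or 4 or 4 week replicate 1 or 4 (1.15 to 1.45). Sst and Chgb were the 2 rises among 17 tested endocrine genes (median 0.84), whose sum was 810 to 3618 CPM at 2 weeks and 2021 to 8059 CPM at 4 weeks. With the endocrine and acinar covariates, 25 of the 80 named genes that were called kept their call: Ciita, H2-Ab1, H2-Eb1, Cd74, Il1rn, Il1b, C3, Itgax, Lyz2, Lgals3, Pdgfb, Tgfbi, Sgk1, Dnajb1, Clec9a, Dpp4, Helz2, Sst, Sparc, Mrc1, Fscn1, Gpr165, Adgrl3, Arsb and Itga6. Sst is itself a member of the endocrine list from which the covariate was made.

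Of the other marker lists, Pecam1 (CD31) fell among 17 endothelial and stromal genes (-0.9999, adjusted p = 0.0186), a call lost without 2 week replicate 1 or 2 or 4 week replicate 2 or 4 (-0.84 to -0.94). The sum of that list was 64.6 to 83.0 CPM at 2 weeks and 50.0 to 61.2 CPM at 4 weeks, without overlap. Among 13 monocyte genes, Spn (CD43) rose from 28.6 to 55.5 CPM (0.96, adjusted p = 0.0181), a call lost without 2 week replicate 2 (0.88) or 4 week replicate 3 (0.87), and Nr4a1 fell. Cd3e, a T cell receptor chain, had 0 counts in all 2 week libraries, which allows up to 0.216 to 0.293 CPM, and at most 0.392 CPM at 4 weeks. S100a8, the neutrophil calprotectin chain, had 0 counts in all 8 libraries. Cd79a, a B cell receptor chain, was at most 0.705 CPM and was not tested. Lists of acinar (12 tested), duct (7), T (12), B (10), natural killer (8), erythroid (7) and neutrophil (4) cells had no called member. This held in the main edgeR fit, DESeq2 and limma-voom. At an unadjusted p under 0.05 these lists had 2, 2, 2, 2, 1, 1 and 0 members. With no filter, Hbb-bs, a haemoglobin chain of the erythroid list, passed in edgeR (2.98). The duct sum was 11.04 to 28.9 CPM at 2 weeks and 29.2 to 47.7 CPM at 4 weeks. Most of it was Spp1 (osteopontin), which is also a member of the lipid-associated macrophage list and by itself made up 8.04 to 24.99 CPM and 21.4 to 41.2 CPM (log2 fold change 0.87, adjusted p = 0.173). T cell markers with appreciable levels, Cd4 (104 ± 24.5 CPM at 2 weeks and 74.8 ± 13.05 CPM at 4 weeks) and Il7r (160.1 ± 15.5 CPM at 2 weeks and 139 ± 17.3 CPM at 4 weeks), did not pass.

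**Figure D4:**
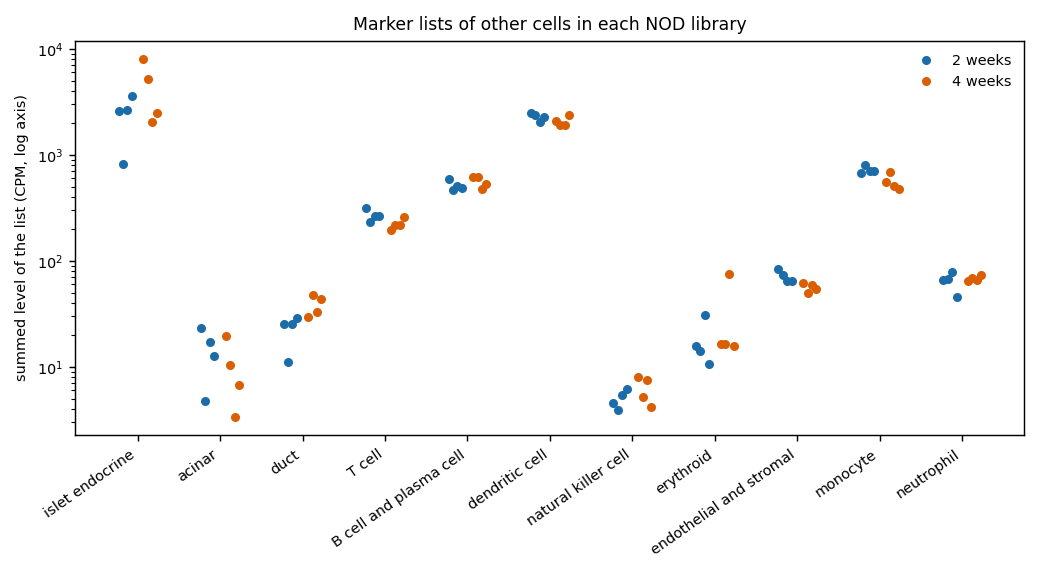
Each point is 1 NOD library and gives the summed level of a marker list of another cell type in CPM on a log axis, with 2 week libraries in blue and 4 week libraries in orange. Endocrine genes reached 8059 CPM and overlapped between the ages.

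In B6 mice the change between the same ages gave a measure that shares no library with the NOD comparison. Of the 242 genes that rose in NOD, 79.8% had a log2 change above 0 in B6 in the 26-library fit, with a median of 0.59, against 52.2% and a median of 0.06 over all genes tested. Of the 107 that fell, 35.5% were above 0 in B6, with a median of -0.15. The class II list had a median B6 change of 1.09, and H2-Ab1 was at 3040.0, 4804 and 2164 CPM in B6 at 2 weeks and 10471, 11528, 14075 and 9022 CPM at 4 weeks, on the scale of all 26 libraries. At 2 and at 4 weeks every B6 library lay above every NOD library for this gene, and at 12 weeks every B6 library (6105 to 8024 CPM) lay below every NOD library (8380.4 to 9733 CPM). The type I interferon-stimulated list, in contrast, had a median B6 change of -0.01. The difference between these list medians of the strains was not tested. No member of the type I or the class II list passed the interaction test of single genes given below. Of all genes tested, 0.893% passed it. B6 libraries varied more: those at 4 weeks had 14152 to 17839 genes with a count, and Cxcl9 ran from 5.08 to 54.8 CPM within the B6 2 week group and from 3.29 to 51.7 CPM at 4 weeks. The reference used for NOD and B6 reads alike is built from C57BL/6J, so a level can differ between the strains through alignment.

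The change differed between the strains for 176 of 19703 genes tested (0.893%), 129 more positive (0.655%) and 47 more negative in NOD (0.239%), by an interaction term in edgeR. Of these, 16 were also called in the NOD comparison, in which 2.12% of all genes tested were called. The NOD change is itself part of the difference, so this overlap is not independent. Sparc fell in NOD while B6 libraries were already low at 2 weeks, at 28.03, 29.2 and 22.4 CPM, and at 66.4, 62.5, 16.8 and 27.6 CPM at 4 weeks (difference -3.83 on the log2 scale, SE 0.51, adjusted p = 4.49e-04). Cd36 went from 108 to 50.1 CPM in NOD and 96.8 to 129.6 CPM in B6 (difference -1.53 on the log2 scale, SE 0.37, adjusted p = 0.0401). Itga6, an integrin chain for laminin, fell in NOD, where it was at 421, 327, 294 and 279.7 CPM at 2 weeks and 168, 193, 141 and 184 CPM at 4 weeks. In B6 Itga6 was at 406, 278 and 319.8 CPM and then 489, 412, 329.8 and 465 CPM, with overlapping ages (difference -1.28 on the log2 scale, SE 0.25, adjusted p = 0.0148).

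Itgad (CD11d), an integrin chain of tissue macrophages, rose in NOD, where it was at 12.1, 6.79, 16.02 and 9.001 CPM at 2 weeks and 22.2, 19.4, 24.8 and 34.3 CPM at 4 weeks. In B6 it was at 4.41, 8.596 and 3.42 CPM and then 0.348, 0.634, 0.454 and 0.719 CPM, below every 2 week library (difference 4.51 on the log2 scale, SE 0.68, adjusted p = 0.00184). Lxn (latexin), a carboxypeptidase inhibitor, went from 7.51 to 19.7 CPM in NOD and 19.7 to 4.14 CPM in B6 (difference 3.63 on the log2 scale, SE 0.70, adjusted p = 0.0153). Plekhg1 went from 3.65 to 7.91 CPM in NOD and 8.01 to 1.73 CPM in B6 (difference 3.32 on the log2 scale, SE 0.67, adjusted p = 0.0171), a call lost without B6 2 week replicate 3 (2.73). The remaining positive differences were Serpina3g (difference 7.27 on the log2 scale, SE 1.19, adjusted p = 0.00308), Chgb (difference 4.89 on the log2 scale, SE 1.09, adjusted p = 0.0302) and Scd2, which went from 96.5 to 53.4 CPM in NOD and 15.3 to 1.78 CPM in B6 (difference 2.25 on the log2 scale, SE 0.57, adjusted p = 0.0474).

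The remaining negative differences were Fam234b (difference -1.73 on the log2 scale, SE 0.36, adjusted p = 0.0209), Nrbp1 (difference -1.42 on the log2 scale, SE 0.33, adjusted p = 0.0357) and Spsb1 (difference -1.31 on the log2 scale, SE 0.32, adjusted p = 0.0428). The change within NOD of Fam234b lost its own call in 4 of the 8 omissions of a library (-0.54 to -0.61), of Spsb1 in 5 (-0.44 to -0.59) and of Plekhg1 in 4 (0.94 to 1.14). Of the 12 named differences, 6 kept their call whichever of the 15 compared libraries was left out: Sparc, Itga6, Fam234b, Itgad, Lxn and Serpina3g. Cd36 lost its call in 9 of the 15 omissions (-1.40 to -1.63), Chgb in 5 (3.92 to 4.87), Scd2 in 10 (1.59 to 2.37), Nrbp1 in 10 (-1.31 to -1.47) and Spsb1 in 12 (-1.04 to -1.45). The number of called differences was 39 to 109 when any NOD library was left out, 65 to 113 without a B6 2 week library and 356 to 651 without a B6 4 week library. It was 2 in a fit of the 4 groups alone, with Sparc among them, and 0 with the endocrine and acinar covariates in edgeR (2069 at an unadjusted p under 0.05), where Sparc had a difference of -2.95 (adjusted p = 0.112).

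**Figure D5:**
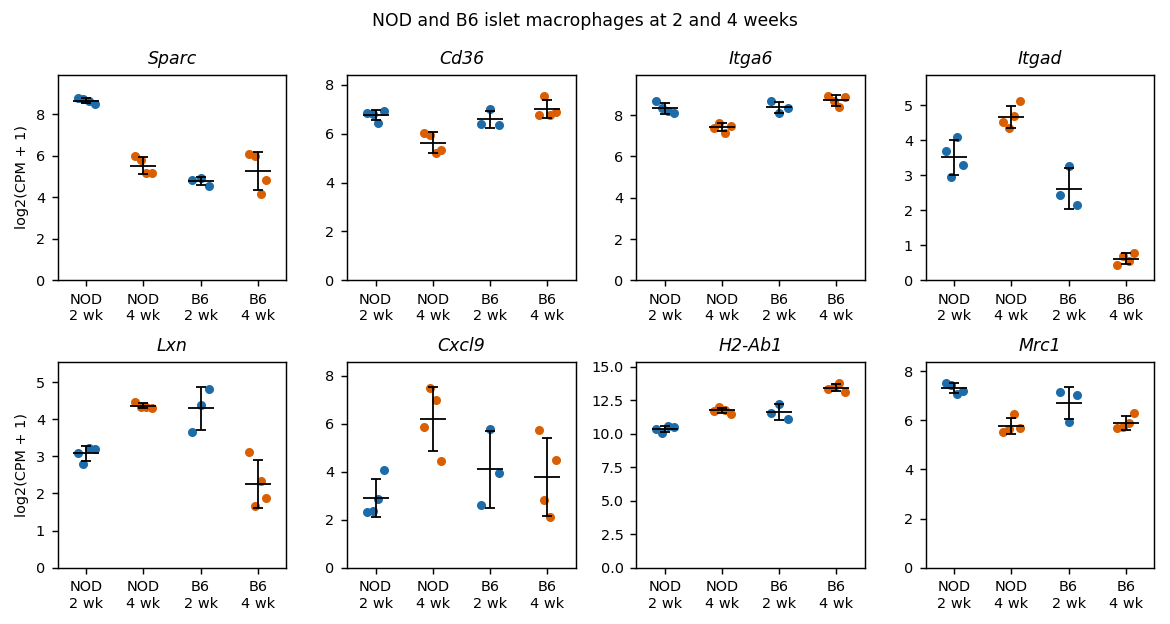
Each panel is 1 gene and each point 1 library, as log2(CPM + 1) in NOD and B6 islet macrophages at 2 weeks (blue) and 4 weeks (orange); bars and whiskers are the mean and SD of the logged values. Sparc started high in NOD and low in B6, Cd36 and Itga6 were lower at 4 weeks in NOD, Itgad and Lxn were higher at 4 weeks in NOD and lower in B6, and H2-Ab1 was higher at 4 weeks in each strain.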

How the data were processed

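RNA of sorted islet macrophages was sequenced, and 8 NOD libraries at 2 and 4 weeks were compared, with groups taken from the labels. The authors deposited raw counts for each gene. The submitters' processing notes name STAR, HTSeq, DESeq2, mm10 and GRCm38. For the tools' versions, nothing was given in the sources used here. The table's 41092 lines held 534 repeat lines of 286 gene IDs, which were removed, and 40254 of the 40558 genes matched a symbol. Coordinates are from GENCODE for GRCm38.

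In R 4.3.3, genes passing filterByExpr were TMM-scaled and fitted with edgeR 4.0.16 (robust quasi-likelihood, 1 mean per age, which assumes a shared spread) over the 15 NOD libraries; the strain difference used all 26. Fitting NOD alone was chosen because B6 libraries were known to vary more. Calls had a Benjamini-Hochberg adjusted p under 0.05, and the SE is the log2 fold change divided by the square root of F. A count of 0 was read as below 3 counts, which covers counting error only. The members, gene lists and tests were chosen with earlier results of these data known.

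Named genes were the 12 largest non-overlapping called rises and falls with at least 5 CPM in the higher group and a descriptive symbol, up to 4 members of each list by adjusted p, the 6 largest strain differences each way among genes also called in NOD, and check genes. Some were left out for room, a few are not reported here, and other genes named were chosen after their values were seen. On simulated counts, 30, 50, 50 and 50 of 50 genes were recovered at folds of 2, 4, 8 and 16 in NOD. For the strain difference 0, 16, 32 and 45 of 50 were. False calls, counted among the unchanged genes, were 14 in NOD and 3 for the strain difference. Genes tested, changed and unchanged together, were 15693 and 18254. The changed genes had a mean of at least 5 CPM, so recovery below that level was not simulated. Each gene's fitted spread was used alike in all groups, so unequal spread between groups was not simulated either. Alternatives were RLE and upper-quartile scaling, no and a stricter filter, DESeq2 1.42.0, limma-voom (limma 3.58.1), a block on replicate number, other sets of libraries, endocrine and acinar levels as covariates, a 2-fold limit and, added after seeing the data, removal of ribosomal RNA models and Plekhh2.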

Additional observations from a re-analysis of the deposited data

Results flagged for a closer look

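Single libraries stood apart from the other 3 of their age by Dixon's 95% value in 11 of 178 groups examined, and chance alone flags about 1 in 20. At 4 weeks, replicate 3 was high for Oas1c (14.2 CPM, others 4.01 to 5.04), for Hbb-bs, a haemoglobin chain (49.3 CPM, others 0 to 1.11), and for the summed erythroid markers (75.2 CPM, others 15.8 to 16.5). The same library was low for Srebf2 (66.9 CPM, others 104 to 110.1). At 4 weeks, replicate 1 was high for Sst (388 CPM, others 192 to 223) and replicate 2 for Sgk1 (451 CPM, others 303 to 327). At 2 weeks, replicate 1 was high for Arg1 (0.261 CPM, others 0.0653 to 0.0874), replicate 3 high for Prss2 (2.46 CPM, others 0 to 0.262) and low for Tgfbi (788 CPM, others 916 to 933). Replicate 2 was low for Neu1 (26.3 CPM, others 33.4 to 34.3), and replicate 4 high for Cenpe (69.5 CPM, others 52.7 to 54.7).

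The change from 2 to 4 weeks differed between NOD and B6 by the interaction term for 12 named genes. It was more positive in NOD for Serpina3g (7.27 on the log2 scale), Chgb (4.89), Itgad (4.51), Lxn (3.63), Plekhg1 (3.32) and Scd2 (2.25). It was more negative in NOD for Sparc (-3.83), Fam234b (-1.73), Cd36 (-1.53), Nrbp1 (-1.42), Spsb1 (-1.31) and Itga6 (-1.28). For Serpina3g the B6 2 week libraries ran from 0.221 to 19.9 CPM.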

How the results depend on the processing

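For the NOD comparison, 349 genes were called and the count moved by over 1.5 times with no filter (685), DESeq2 (674), limma-voom (209), a limit of 2-fold change (5), the endocrine and acinar covariates (85), the 8 libraries alone (128) and all 26 libraries (27). Without each library in turn it ran from 232 to 377. Of the 80 named called genes, 51 kept their call in every omission of a library, 79 under RLE scaling, 80 with DESeq2, 48 with limma-voom, 43 in the 8 libraries alone, 25 with the covariates and 16 in all 26 libraries. Replicate numbers do not pair the libraries: same-number correlations of deviations were -0.09 to 0.02. With the replicate number as a block, 290 genes were called, 272 of them shared, and 51 strain differences. For the strain difference, 176 genes were called; the count was 114 with no filter, 892 with DESeq2, 2 with limma-voom, 17 with the 2-fold limit and 2 in the 4 groups alone, and 39 to 651 without each library. With the covariates edgeR called 0 (2069 at an unadjusted p under 0.05). Upper-quartile scaling shifted the median of all strain differences by 0.23, and 90.9% of its 208 calls were positive, against 73.3%. Removal of ribosomal RNA models and Plekhh2, added after seeing the data, gave 345 and 173. Some values that did not pass the test changed sign, and the cause was not tested: Ins1 -0.0287 with the covariates; Prss2 0.79 with limma-voom and 1.12 with the covariates; Adgre1 0.024 with upper-quartile scaling, 0.075 with limma-voom and 0.031 with the covariates. Without each library in turn, Hbb-bs ran from -1.51 (without 4 week replicate 3) to 3.56, Prss2 from -1.38 to 2.22 (without 2 week replicate 3), and Adgre1 from -0.069 to 0.084. Depth limits genes under about 0.2 CPM, and 4 libraries an age limit small changes.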

Other observations

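Genes of the circadian clock were looked at after Cry1 appeared among the largest falls, so the list was chosen after its values were seen. Of 18 clock genes, 3 fell and 1 rose, and the median log2 fold change was -0.26. Per2, a clock repressor, was at 39.7, 39.7, 27.1 and 32.2 CPM at 2 weeks and 12.4, 11.8, 14.7 and 13.8 CPM at 4 weeks. The ages did not overlap (log2 fold change -1.40, SE 0.23, adjusted p = 0.00123). Tef, a clock output transcription factor, fell from 24.2 to 11.8 CPM (-1.04, adjusted p = 0.0321). Bhlhe40, a repressor that acts in the clock and in activated macrophages, rose and was at 30.9, 26.3, 38.2 and 26.5 CPM at 2 weeks and 69.99, 64.01, 63.7 and 56.6 CPM at 4 weeks (log2 fold change 1.06, SE 0.17, adjusted p = 9.74e-04). Arntl, the core activator, averaged 12.8 and 10.8 CPM and did not pass (-0.24, adjusted p = 0.729). With the endocrine and acinar covariates none of the falls passed in edgeR, nor in the fit of all 26 libraries.

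Genes best known from microglia were likewise listed after P2ry12 and Sparc were seen to fall. Of 15, 4 fell, and the median was -0.46. Besides P2ry12 and Sparc these were Gpr34, a receptor for lysophosphatidylserine, at 69.5, 45.99, 53.1 and 44.4 CPM at 2 weeks and 28.1, 31.97, 20.1 and 15.9 CPM at 4 weeks (log2 fold change -1.15, SE 0.23, adjusted p = 0.0075), and Mef2c, a transcription factor, at 278, 338, 253 and 287 CPM at 2 weeks and 211, 204, 157 and 180.1 CPM at 4 weeks (log2 fold change -0.62, SE 0.13, adjusted p = 0.0075). Their ages did not overlap. Tmem119, another microglial marker, averaged 555 and 501 CPM (-0.15, adjusted p = 0.479), and Cx3cr1 1225 and 1177 CPM (-0.06, adjusted p = 0.842). Leaving out a library gave 4 or 5 falls, while the endocrine and acinar covariates gave 1 and all 26 libraries 1. P2ry12 lost its call in both, with an adjusted p of 0.0537 with the covariates and 0.783 in all 26 libraries in edgeR.

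Some strongly separated genes belonged to no list and are named after their values were seen. Il2ra (CD25), the interleukin-2 receptor alpha chain, was at 7.44, 16.5, 17.8 and 27.1 CPM at 2 weeks and 90.2, 75.95, 57.99 and 54.6 CPM at 4 weeks (log2 fold change 2.02, SE 0.27, adjusted p = 1.35e-04). Acp5, the tartrate-resistant acid phosphatase of osteoclasts and macrophages, was at 153, 143, 191 and 142 CPM at 2 weeks and 314, 372, 373 and 456 CPM at 4 weeks (log2 fold change 1.27, SE 0.13, adjusted p = 4.20e-06). Ly6e, an interferon-inducible surface protein, was at 49.6, 53.4, 57.3 and 48.4 CPM at 2 weeks and 156, 208, 116 and 88.1 CPM at 4 weeks (log2 fold change 1.44, SE 0.18, adjusted p = 8.16e-05). Each was higher in all 4 week libraries. Gdi2, which recycles Rab GTPases, was lower in all 4 week libraries, at 607, 602, 467 and 462 CPM at 2 weeks and 296, 306, 304 and 262 CPM at 4 weeks (log2 fold change -0.87, SE 0.12, adjusted p = 1.05e-04).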
